A study of Mus musculus with 4 samples.

Results

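A set of 9 genes that are recurrently mutated in acute myeloid leukemia, Dnmt3a, Tet2, Idh1, Idh2, Wt1, Asxl1, Npm1, Nras and Ptpn11, was followed in the Sub1 peak lists of mouse leukemia stem cells (LSCs) and hematopoietic stem cells (HSCs). They were the mouse counterparts of 9 listed genes, out of 21887 protein-coding genes of the RefSeq annotation of GRCm38.p6 (mm10), and a peak belonged to a gene when it overlapped the gene body extended by 5 kb on each side. In the LSC lists 8 of the 9 genes had peaks, and the same 8 had peaks in both HSC lists. Wt1 had peaks in HSC 2 alone. The strongest peak of a gene usually lay within 2 kb of an annotated start. Among the 7 genes with starts in the reference used, Dnmt3a alone had a start, its second, that no peak covered in any library.

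Acute myeloid leukemia often arises stepwise in blood stem and progenitor cells. Mutations of the DNA methylation and chromatin regulators DNMT3A, TET2 and ASXL1 are known from human blood cells before leukemia appears, and those of NPM1 and of the Ras pathway genes NRAS and PTPN11 are mostly acquired later. Mutant IDH1 and IDH2 make a metabolite that inhibits TET enzymes, and the transcription factor WT1 can recruit TET2 to DNA, so these genes are often treated as 1 DNA methylation pathway. Sub1 is a DNA-binding cofactor of transcription, and CUT&Tag maps it by tethering a transposase to an antibody in permeabilised cells.

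Both LSC libraries were made from bone marrow cells that were c-Kit+, CD34+ and CD16/32+ but Lin- and Sca-1-, sorted from mice with MLL-AF9-driven leukemia, and both HSC libraries from CD48-CD150+LSK bone marrow cells of mice without it. All 4 libraries carried the genotype Nup214fl/+, and the labels name no Cre, no age and no way in which MLL-AF9, a fusion oncogene, was introduced. Separate mice for the 2 libraries of a group are not stated, and the spread between them may be technical. Hematopoietic stem cell is given as the cell type of the LSC samples too, and the groups rest on the sorting markers. Sub1 as the target also rests on the labels, because every peak name begins with H4-Cut, a prefix without explanation.

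The lists differed in length, with 41097 and 34185 peaks in LSC 1 and LSC 2, against 115881 and 235680 peaks in HSC 1 and HSC 2. The caller's background pileup, which stands in for depth, was 4.54 and 4.50 in the LSC libraries and 3.07 and 7.47 in the HSC libraries. Because of this, values are also given for lists of equal size, holding the 34185 peaks per library with the highest −log10 p. Of 5 HSC marker genes, 4 and 2 had a peak in the deposited LSC lists, against 5 and 5 in the HSC lists, and 4 and 2 against 2 and 3 at equal size. Slamf1 (CD150) had a peak in the deposited HSC lists alone, and in none of the 4 lists at equal size. Of 7 genes of LSCs and granulocyte-monocyte progenitors, 7 and 6 had a peak in the LSC lists, against 7 and 7 in the HSC lists, and 6 and 6 against 5 and 6 at equal size. All 4 neutrophil genes had a peak in every list at both sizes. Of 9 B, T and erythroid genes, 3 and 2 had a peak in the deposited LSC lists, against 6 and 9 in the HSC lists, and 2 and 2 against 2 and 3 at equal size. The part of other cells in the results was not tested. A peak list of a sorted population cannot tell fewer occupied cells from less signal per cell.

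Most of the strongest peaks lay at annotated starts, and the sequences of 5 of these starts carry the letters described next. RefSeq promoter sequences, 250 bases before to 50 bases after a start on GRCm38.p6, matched 7 of the 9 genes with 10 starts in all. The 5 given are the start that no peak covered, the internal start with the strongest Dnmt3a peak, the Tet2 start of like base composition, the Idh1 start with the highest-ranking peak of the 9 genes, and the Nras start with the lowest content of G and C. They read 5′ to 3′ on the gene's strand, with the GC box letters GGGCGG, or CCGCCC where the match is on the other strand, in capitals.
Dnmt3a, second start (chr12:3806910-3807209, plus strand): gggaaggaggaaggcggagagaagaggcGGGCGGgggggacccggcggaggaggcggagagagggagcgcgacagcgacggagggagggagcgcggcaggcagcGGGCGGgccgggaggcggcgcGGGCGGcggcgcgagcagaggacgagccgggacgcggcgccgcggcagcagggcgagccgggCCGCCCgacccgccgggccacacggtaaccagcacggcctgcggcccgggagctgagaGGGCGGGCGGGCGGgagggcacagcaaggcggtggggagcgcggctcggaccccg
Dnmt3a, internal start (chr12:3891494-3891793, plus strand): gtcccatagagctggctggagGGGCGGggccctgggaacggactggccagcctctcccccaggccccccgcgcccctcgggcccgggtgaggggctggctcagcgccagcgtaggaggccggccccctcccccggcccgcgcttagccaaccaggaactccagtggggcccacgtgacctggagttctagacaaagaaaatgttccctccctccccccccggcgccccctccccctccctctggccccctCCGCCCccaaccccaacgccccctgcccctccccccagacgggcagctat
Tet2 (chr3:133544341-133544640, minus strand): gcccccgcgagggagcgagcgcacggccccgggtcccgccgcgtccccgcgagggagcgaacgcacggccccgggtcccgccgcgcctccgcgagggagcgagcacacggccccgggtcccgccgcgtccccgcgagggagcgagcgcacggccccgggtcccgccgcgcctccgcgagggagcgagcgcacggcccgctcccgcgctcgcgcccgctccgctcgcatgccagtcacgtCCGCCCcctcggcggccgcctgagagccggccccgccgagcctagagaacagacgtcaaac
Idh1, second start (chr1:65179093-65179392, minus strand): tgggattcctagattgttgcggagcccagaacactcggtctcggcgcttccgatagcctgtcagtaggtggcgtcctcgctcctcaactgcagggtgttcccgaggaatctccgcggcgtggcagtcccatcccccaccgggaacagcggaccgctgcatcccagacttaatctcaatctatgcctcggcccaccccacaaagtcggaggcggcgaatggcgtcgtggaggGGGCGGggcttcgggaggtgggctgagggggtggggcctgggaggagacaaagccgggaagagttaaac
Nras (chr3:103058035-103058334, plus strand): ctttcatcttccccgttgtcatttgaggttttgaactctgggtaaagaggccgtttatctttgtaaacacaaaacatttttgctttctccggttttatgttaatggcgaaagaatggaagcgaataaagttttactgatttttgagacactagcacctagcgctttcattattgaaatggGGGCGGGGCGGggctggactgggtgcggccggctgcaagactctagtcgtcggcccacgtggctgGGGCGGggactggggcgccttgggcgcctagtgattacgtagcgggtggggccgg

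The letters GGGCGG were found on either strand in all 10 starts of the 7 genes, against 46.2% of 21263 starts of the genome and 66.4% of the 9083 starts that had a peak in all 4 libraries. CCGGAA occurred at the Asxl1 and Ptpn11 starts (18.7% of all starts), TGACGTCA at the Ptpn11 start (2.23%) and CCAAT at the first Idh1 start and the Idh2 start (38.2%). TATAAA occurred in none of the 10 windows, against 12.6% of all starts. The windows did not overlap each other except those of the first and second Dnmt3a starts. These matches describe letters in a window and were not tested against peaks.

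A peak overlapped the start window at 9 and 8 of the 10 starts in the LSC libraries, and at 8 and 8 of 10 in the HSC libraries. Across the genome this held for 51.4% and 49.0% of starts in the LSC libraries, and for 48.5% and 51.4% in the HSC libraries. All 7 genes had at least 1 start with a peak in every library, and 8 of the 10 starts had one in all 4 libraries, against 42.7% of all starts. The strongest summit within 2 kb lay downstream of the start at 9 and 7 of 10 starts in the LSC libraries and at 9 and 9 of 10 in the HSC libraries. The corresponding shares over all starts with such a summit were 72.0% and 71.7% in the LSC libraries and 66.3% and 62.3% in the HSC libraries.

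**Figure D1:**
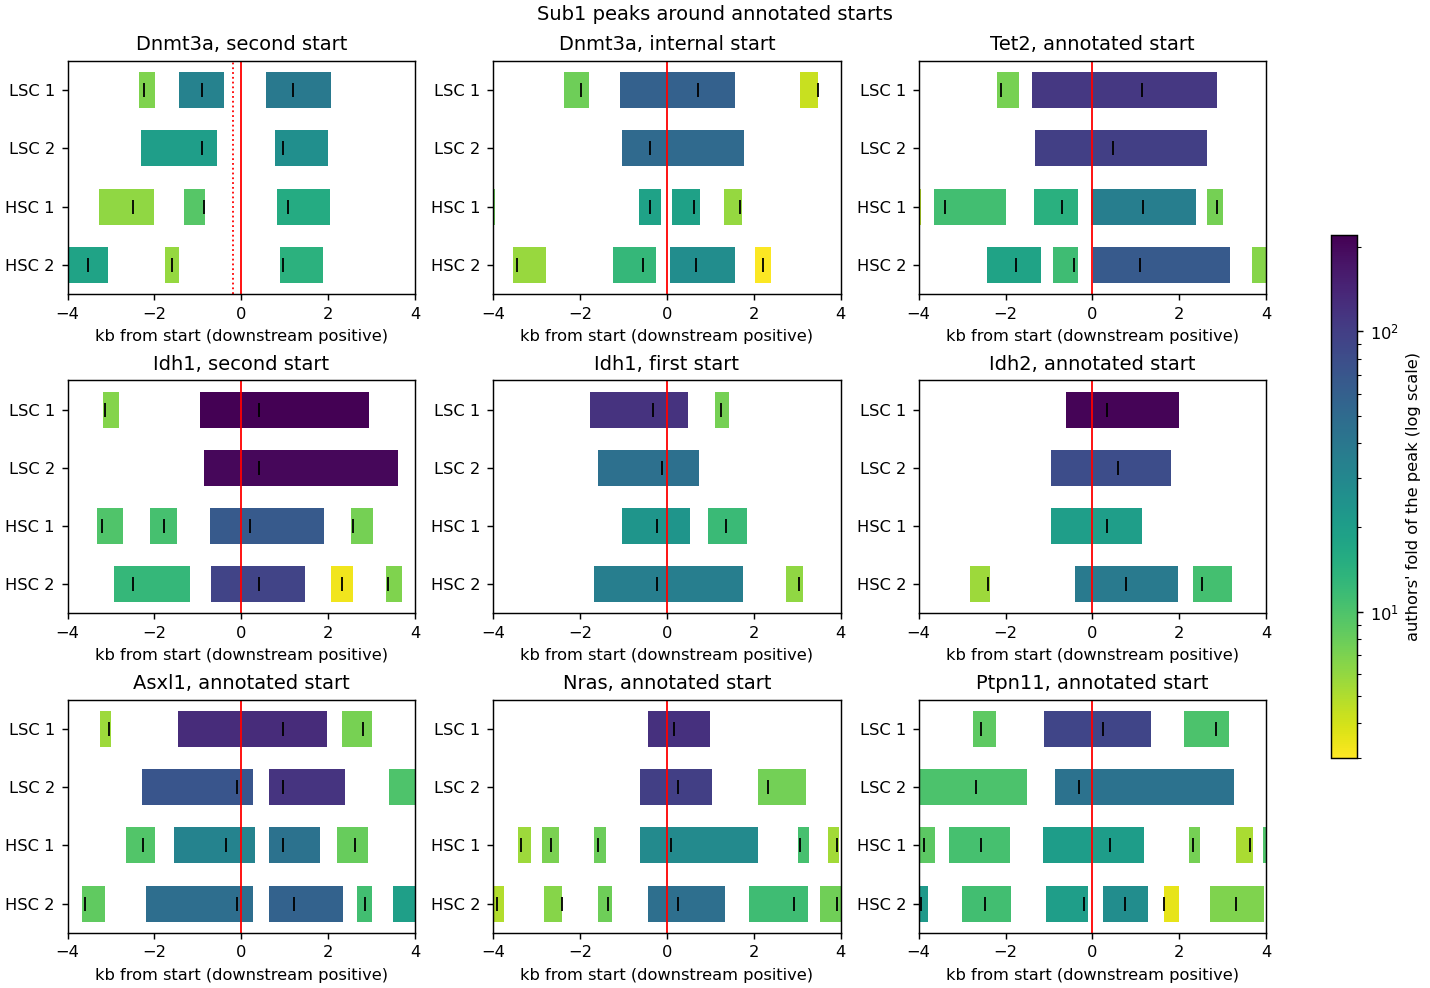
Deposited Sub1 peaks within 4 kb of 9 of the annotated starts, with distance from the start in kb (downstream positive) on the horizontal axis and 1 row per library, LSC above HSC. Bars are peaks shaded by the authors' fold on a log scale, black ticks are summits, the red line is the start and a dotted red line another start of the same gene. No bar reaches the window of the second Dnmt3a start, whereas the other 8 starts shown have a peak over their window in all 4 libraries. The start itself falls between bars at the internal Dnmt3a start in both HSC libraries. It does so in HSC 2 at the Tet2 and Ptpn11 starts.

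Dnmt3a, the gene of a de novo DNA methyltransferase (12, 3801559 to 3914443, 113 kb long), had 9 and 6 peaks in the LSC libraries, against 19 and 24 peaks in the HSC libraries. The groups did not overlap, with means of 7.5 ± 2.12 in LSCs and 21.5 ± 3.54 in HSCs (SD, n = 2 each, exact permutation p = 0.333, two-sided). With 2 libraries against 2, no exact permutation test can give a p below 0.333, and this bound holds for every gene below. With lists of equal size Dnmt3a had 6 and 6 peaks in the LSC libraries, against 7 and 5 in the HSC libraries, so that the groups overlapped. The share of the extended gene covered by peaks was then 5.40% and 6.32% in the LSC libraries, against 3.39% and 3.96% in the HSC libraries, higher in both LSC libraries. In the deposited lists the order was the other way, with 6.31% and 6.32% in the LSC libraries, against 7.33% and 12.0% in the HSC libraries.

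The strongest Dnmt3a peak did not lie at the low end of the gene but at an annotated internal start, 90.2 kb from that end. Dnmt3a is known to have a shorter isoform made from an internal promoter. A fold here is the authors' ratio of pileup to background, and since it is not on a common scale between libraries it orders peaks within a list only. For the strongest peak it was 59.0 and 50.3 in the LSC libraries, against 18.9 and 27.2 in the HSC libraries. In both HSC libraries that peak began downstream of the internal start, and a weaker peak lay before it. The lncRNA gene Gm31623 runs over this start on the other strand, so the peak cannot be given to Dnmt3a alone. Among protein-coding genes the strongest Dnmt3a peak stood at percentiles 55.4 and 59.9 in the LSC libraries and at percentiles 57.2 and 60.6 in the HSC libraries, and the groups overlapped.

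The first and second Dnmt3a starts lie 5.42 and 5.60 kb from the low end of the gene, in windows with 82.3% and 81.0% G and C. Peaks flanked them on both sides in every library, and no peak lay between. The gap between the flanking peaks spanned 958 and 1327 bases in the LSC libraries, against 1660 and 2341 bases in the HSC libraries. In LSC 1 the peak before the gap reached into the window of the first start, which the other 3 libraries left without a peak. The peak after the gap had folds of 39.0 and 26.2 in the LSC libraries, against 16.0 and 14.2 in the HSC libraries, so it was among the stronger peaks of the gene.

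A start without a peak but with summits on both sides within 2 kb in all 4 libraries was found at 9 of 21263 starts (0.0423%), the second Dnmt3a start being 1 of them. Among the 282 starts with 80% or more G and C, like this one, the share was 1.77%. This pattern was looked for after the Dnmt3a gap had been seen. In single libraries it held for 0.508% and 0.842% of starts in LSCs, against 2.89% and 4.93% of starts in HSCs. Within that class of base composition it held for 4.96% and 22.0% in the LSC libraries, against 17.4% and 35.5% in the HSC libraries. Starts of that composition had a peak over their window in 65.2% and 41.8% of cases in the LSC libraries, against 45.4% and 29.4% in the HSC libraries. Starts with 60% to 70% G and C had one in 76.4% and 73.0% of cases in the LSC libraries, against 71.4% and 72.8% in the HSC libraries. The part of base composition, in the library or in alignment, in the Dnmt3a gap was not tested.

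**Figure D2:**
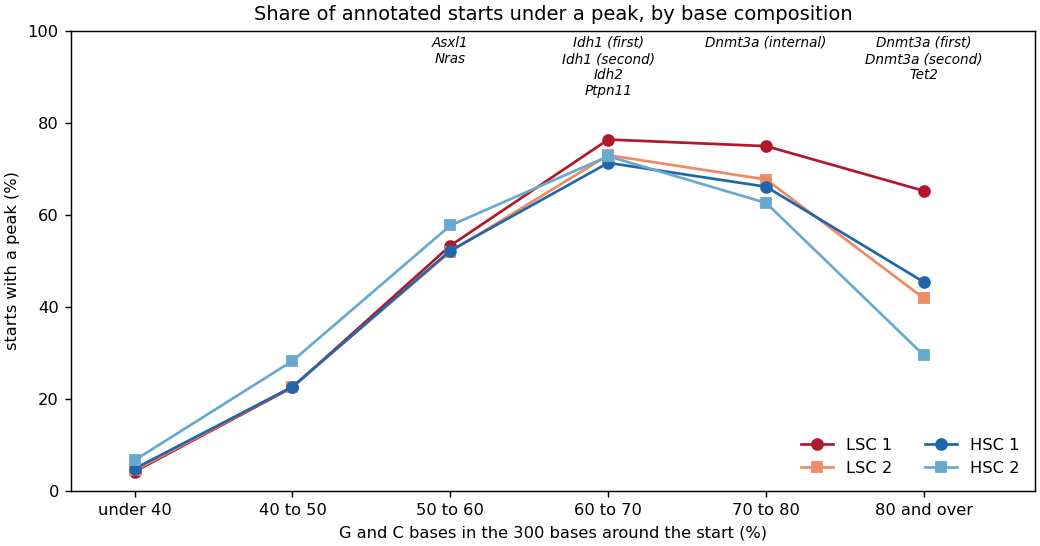
Share of annotated starts with a peak over the 300 bases around them, in percent, against the content of G and C in those bases, with 1 line per library (LSC red, HSC blue) and the starts of the 7 genes named above their class. In the class of 80% and over the lines end at 65.2% and 41.8% for the LSC libraries and at 45.4% and 29.4% for the HSC libraries, and this class holds both the first and second Dnmt3a starts and the Tet2 start.

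Tet2, the gene of a dioxygenase that oxidises methylated cytosine (3, 133463677 to 133545136), shares that composition and had a peak at its start in every library. Its window holds 81.3% G and C, and the strongest peak there had folds of 110 and 98.9 in the LSC libraries, against 35.9 and 66.3 in the HSC libraries. Summits lay 1150 and 465 bases downstream in the LSC libraries, against 1153 and 1104 bases in the HSC libraries. The strongest peak was 4277 and 3970 bases wide in the LSC libraries, against 2419 and 3155 bases in the HSC libraries. In both HSC libraries that peak ended close to the start and weaker peaks followed upstream, whereas the LSC peaks ran across it.

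Tet2 had 3 and 3 peaks in the LSC libraries, against 6 and 14 peaks in the HSC libraries, and 3 and 3 against 3 and 4 in lists of equal size. The second strongest peak had folds of 9.02 and 6.00 in the LSC libraries, against 14.5 and 18.2 in the HSC libraries. These second peaks were not at like sites. That of HSC 1 lay within the span of the strongest LSC 1 peak, and that of HSC 2 overlapped this span. The covered share was 5.56% and 5.34% in the LSC libraries, against 5.59% and 5.68% in the HSC libraries, in lists of equal size. Both LSC values were lower there, by less than 1 percentage point. The percentile of the strongest peak was 68.6 and 77.8 in the LSC libraries, against 77.6 and 88.9 in the HSC libraries, and the groups overlapped.

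Idh1, the gene of the cytosolic and peroxisomal isocitrate dehydrogenase (1, 65158616 to 65186479), had the highest-ranking peak of the 9 genes in every library. It stood at percentiles 93.5 and 97.4 in the LSC libraries and at percentiles 96.9 and 96.4 in the HSC libraries, so the groups overlapped. The peak lay at the second annotated start, with folds of 219 and 203 in the LSC libraries, against 66.3 and 92.9 in the HSC libraries. Its summits lay 415 and 414 bases downstream of that start in the LSC libraries, against 204 and 418 bases in the HSC libraries. The positions differed by less than 5 bases in 3 of the 4 libraries.

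The first Idh1 start had weaker peaks, with folds of 118 and 45.6 in the LSC libraries, against 23.3 and 35.9 in the HSC libraries. All 4 summits there lay upstream of it, at −327 and −102 bases in the LSC libraries and at −224 and −221 bases in the HSC libraries. Pikfyve, the gene of a phosphoinositide kinase, starts on the opposite strand at 28.1 kb from the low end of Idh1, beside the first Idh1 start at 27.9 kb, so these peaks cannot be given to 1 of the genes. In all, Idh1 had 4 and 2 peaks in the LSC libraries, against 8 and 8 in the HSC libraries, and 4 and 2 against 5 and 4 in lists of equal size. The covered share in lists of equal size was 18.1% and 17.9% in the LSC libraries, against 16.7% and 26.1% in the HSC libraries, with LSC values inside the HSC range.

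Idh2, the gene of the mitochondrial isocitrate dehydrogenase (7, 80094845 to 80118608), was 1 of the genes whose strongest peak ranked higher in both LSC libraries. The percentile was 92.5 and 71.5 in the LSC libraries, against 58.6 and 70.6 in the HSC libraries (82.0 ± 14.9 in LSCs and 64.6 ± 8.47 in HSCs, SD, n = 2 each, exact permutation p = 0.333). LSC 1 stood far above the other 3 libraries, and LSC 2 was above HSC 2 by less than 1 percentile. The difference, LSC minus HSC, was 17.4 percentiles, and 6.88 without LSC 1, 27.9 without LSC 2 and 11.4 without HSC 1. The fold of this peak, over the annotated start, was 212 and 81.2 in the LSC libraries, against 20.1 and 38.1 in the HSC libraries. Other peaks in the Idh2 window were weak in LSCs, with second folds of 9.20 and 6.91, against 5.89 and 16.1 in the HSC libraries. Both LSC second peaks lay outside the Idh2 gene body and overlapped the protein-coding gene Zfp710, so they cannot be given to Idh2. The number of peaks was 2 and 3 in the LSC libraries, against 3 and 13 in the HSC libraries, and HSC 2 alone was high.

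Wt1, the gene of a zinc finger transcription factor (2, 105126529 to 105173614), had no peak in either LSC library nor in HSC 1, and 5 peaks in HSC 2. Their folds ran between 3.42 and 6.97 and their pileups between 28 and 58, and none was among the 34185 strongest peaks of HSC 2. HSC 2 had the longest list and the highest background pileup of the 4. None of the peaks covered the low end of the gene, where the antisense gene Wt1os begins, and the strongest lay at 48.3 kb from that end, just outside the gene body. A gene with no peak is one that the caller did not list at this depth, which says nothing of signal below the caller's threshold.

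Asxl1, the gene of a partner of the histone deubiquitinase Bap1 (2, 153345830 to 153404007), was the 1 gene of the 9 whose strongest peak ranked lower in both LSC libraries. The percentile was 74.3 and 83.0 in the LSC libraries, against 85.5 and 84.5 in the HSC libraries (78.6 ± 6.17 in LSCs and 85.0 ± 0.703 in HSCs, SD, n = 2 each, exact permutation p = 0.333). The difference, LSC minus HSC, was −6.34 percentiles, and −1.97 without LSC 1 and −10.7 without LSC 2. Its start had a pair of peaks in 3 libraries, 1 with a summit upstream and a stronger one with a summit 959 bases downstream in LSC 2 and in HSC 1 and 1219 bases in HSC 2. In LSC 1 a single peak of 3450 bases ran over both positions, with its summit 963 bases downstream. The stronger peak had folds of 129 and 115 in the LSC libraries, against 43.5 and 57.5 in the HSC libraries.

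The number of Asxl1 peaks was 5 and 3 in the LSC libraries, against 15 and 17 in the HSC libraries. It stayed lower in both LSC libraries in lists of equal size, at 4 and 3 peaks, against 6 and 5 in the HSC libraries. The covered share in those lists was 7.38% and 8.98% in the LSC libraries, against 7.95% and 11.4% in the HSC libraries, and the groups overlapped. The joined peak of LSC 1 counts as 1 in these numbers. The lncRNA gene 2500004C02Rik ends just before the Asxl1 start, and Nol4l shares the far end of the window.

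Npm1, the gene of a nucleolar phosphoprotein and histone chaperone (11, 33152498 to 33164142), had 2 and 1 peaks in the LSC libraries, against 5 and 9 peaks in the HSC libraries. At equal list size the numbers were 2 and 1 in the LSC libraries, against 1 and 1 in the HSC libraries. The strongest peak in every library lay near the high end of the gene, with folds of 105 and 104 in the LSC libraries. In the HSC libraries its folds were 25.5 and 31.5. Its summits lay 9.90 and 10.0 kb from the low end of the 11.6 kb gene in the LSC libraries, against 9.90 and 10.7 kb in the HSC libraries. Its percentile was 67.1 and 79.4 in the LSC libraries, against 64.9 and 64.7 in the HSC libraries, higher in both LSC libraries (73.2 ± 8.68 in LSCs and 64.8 ± 0.144 in HSCs, SD, n = 2 each, exact permutation p = 0.333). The difference, LSC minus HSC, was 8.43 percentiles, and 2.29 without LSC 2 and 14.6 without LSC 1.

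Nras, the gene of a small GTPase (3, 103058285 to 103067914), is the shortest of the 9 genes and had the widest gap in covered share. Peaks covered 7.37% and 14.3% of the extended gene in the LSC libraries, against 26.2% and 38.4% in the HSC libraries. At equal list size the shares were 7.37% and 14.3% in the LSC libraries, against 15.0% and 8.98% in the HSC libraries, and the groups overlapped. The number of peaks was 1 and 2 in the LSC libraries, against 10 and 10 in the HSC libraries, and 1 and 2 against 2 and 1 in lists of equal size. The peak over the start had folds of 121 and 98.7 in the LSC libraries, against 28.7 and 46.7 in the HSC libraries. Summits lay within 251 bases downstream of the start in every library, the lowest being 98 bases in HSC 1.

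Ptpn11, the gene of the tyrosine phosphatase Shp2 (5, 121130533 to 121191397), had 6 and 4 peaks in the LSC libraries, against 23 and 23 peaks in the HSC libraries. It kept lower numbers in lists of equal size, at 5 and 4 in the LSC libraries, against 6 and 6 in the HSC libraries. The covered share in those lists was 6.27% and 10.3% in the LSC libraries, against 6.64% and 7.53% in the HSC libraries, and here LSC 1 was the lowest and LSC 2 the highest. The strongest peak, near the start, had folds of 90.7 and 43.4 in the LSC libraries, against 20.6 and 27.3 in the HSC libraries. In HSC 2 this peak did not reach the start window, and the peak over that window had a fold of 20.1. The percentile of the strongest peak was 63.2 and 57.4 in the LSC libraries, against 59.2 and 60.8 in the HSC libraries. The groups overlapped.

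**Figure D3:**
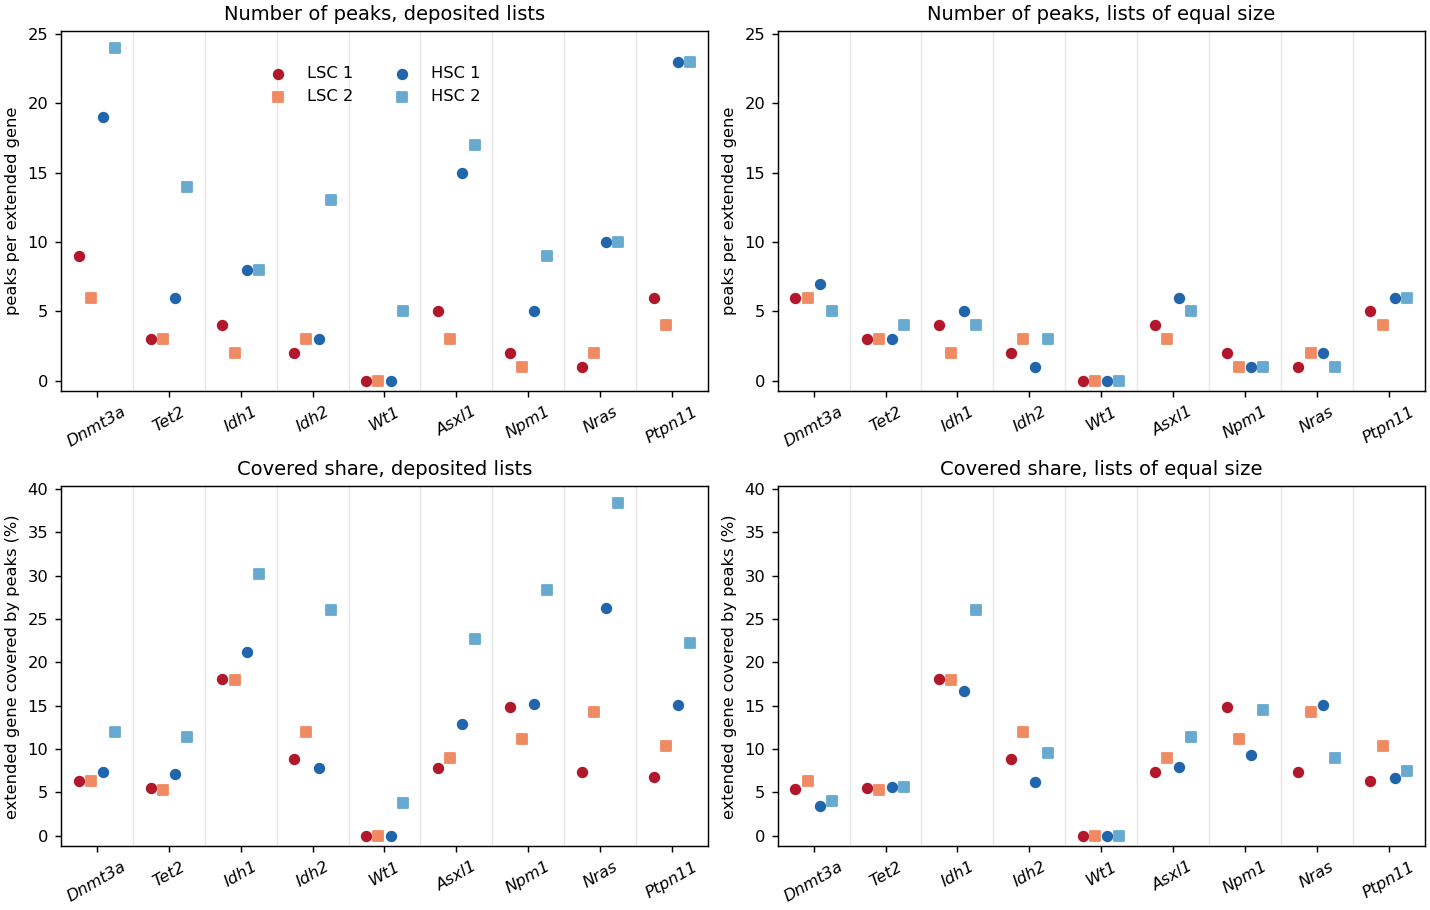
Number of peaks per extended gene (upper panels) and percent of the extended gene covered by peaks (lower panels) for the 9 genes, in the deposited lists (left) and in lists of 34185 peaks per library (right). Each point is 1 library, LSC red and left of HSC blue. In the deposited lists the number of peaks was lower in both LSC libraries for 7 genes, and in lists of equal size for Asxl1 and Ptpn11.

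Over the 9 genes together, the number of peaks was lower in both LSC than in both HSC libraries for 7 genes in the deposited lists, all but Idh2 and Wt1, against 57.9% of all protein-coding genes. In lists of equal size this left 2 genes, Asxl1 and Ptpn11, against 6.78% of all genes. The covered share was lower in both LSC libraries for the same 7 genes in the deposited lists, against 48.4% of all genes. In lists of equal size it was higher in both LSC libraries for Dnmt3a, against 18.1% of all genes, and lower for Tet2, against 12.5%. In the deposited lists the median difference in covered share (LSC minus HSC) was −7.69 percentage points over the 9 genes. Over all genes it was −3.40, and in lists of equal size it was 0 over both. All genes include those without a peak in some library, and 58.0% had one in all 4 deposited lists, against 8 of the 9. The number of peaks and covered share were not compared with that subset, so these contrasts are not between like genes.

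No gene of the 9 had peaks throughout 1 group and none in the other. Across all protein-coding genes this held for LSCs in 0.0366% and for HSCs in 8.21% of genes in the deposited lists, and in 2.37% and 0.416% in lists of equal size. The 8 genes other than Wt1 had a peak in all 4 libraries at both list lengths, against 58.0% of all genes in the deposited lists and 52.2% in lists of equal size.

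Among the 12696 genes with a peak in all 4 libraries, the strongest peak ranked higher in both LSC libraries for 26.4% and lower in both for 21.8%. Of the 8 genes with such peaks, Idh2 and Npm1 were higher and Asxl1 was lower, which is near those shares. The other 5 genes overlapped between the groups. The order within a library placed Idh1 highest of the 8 in every library, and Dnmt3a and Ptpn11 were the lowest 2 in LSC 1 and LSC 2. In HSC 1 the lowest 3 were Dnmt3a, Idh2 and Ptpn11, which lay within 2 percentiles of each other, and in HSC 2 Dnmt3a and Ptpn11 again were the lowest.

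**Figure D4:**
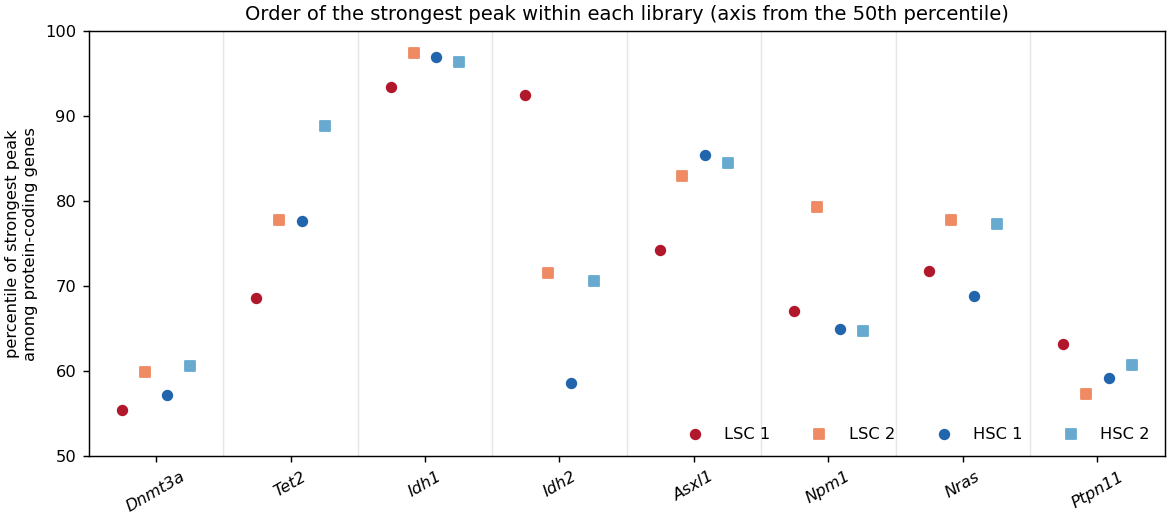
Percentile of the strongest peak of each gene among protein-coding genes, ordered by −log10 p within each library, for the 8 genes with a peak in all 4 libraries. Each point is 1 library, LSC red and left of HSC blue, and the axis starts at the 50th percentile. Idh1 lies above 93 in every library, and Idh2 has the widest range, between 58.6 in HSC 1 and 92.5 in LSC 1.

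In most of the genes the strongest peak stood further above the second one in LSCs. The fold of the strongest over that of the second peak was higher in both LSC than in both HSC libraries for 5 of the 6 genes with at least 2 peaks in every library, Dnmt3a, Tet2, Idh2, Asxl1 and Ptpn11. Of the 8049 protein-coding genes that allow this ratio, 65.6% showed the same, so the 5 genes are not set apart from the rest. The ratio was chosen after the data were seen. In Dnmt3a and Tet2 the second peak of HSC 1 lay within the span of the strongest LSC 1 peak. For Asxl1 the ratio was 12.2 in LSC 1, where the peaks at the start were joined, and 1.61 in LSC 2. How the ratio depends on depth, and on peaks joined in some libraries and split in others, was not tested. Over the 8 genes, where a second peak existed, it ran between 1.51 and 23.0 in the LSC libraries, with Idh2 the highest in LSC 1, against 1.01 to 4.08 in the HSC libraries.

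Peaks were merged over the 4 libraries, and 156 merged regions overlapped the extended bodies of the 9 genes. Of these, 117, or 75.0%, were found in a single library, against 76.3% of 187534 regions in the windows of all protein-coding genes. A library was counted for a region also when its peak there lay outside the extended gene, as HSC 1 in a region before Asxl1. Of the 117 regions, 5 were in LSC 1 and 3 in LSC 2, against 35 in HSC 1 and 74 in HSC 2. No region was shared by the LSC libraries and absent from both HSC libraries, against 0.356% over all genes. Regions shared by the HSC libraries and absent from both LSC libraries numbered 12, 5 of them in Ptpn11 and 4 in Nras, against 8.99% over all genes. In all 4 libraries there were 14 regions, or 8.97%, against 7.32% over all genes.

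Of these 14 shared regions, 8 contained an annotated start of their gene, whereas none of the 126 regions that the 7 genes with annotated starts had in fewer libraries did. The other 6 were the regions on either side of the first and second Dnmt3a starts, at 0.218 and 0.561 kb from the nearest of them, a region of Asxl1 3.41 kb downstream of its start, the Npm1 region, and 2 regions of Ptpn11. One Ptpn11 region lay 1.52 kb upstream of its start and the other 65.1 kb from it, at the far edge of the window. No start and strand were used for Npm1. The share of regions that contain a start was not computed over all genes, so no trait of these genes is read from it. A wider region can more easily contain a start, and the shared Tet2 region spanned 6814 bases.

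A wider list of 32 other genes mutated in myeloid leukemia or acting on DNA methylation, among them signalling genes, transcription factors, chromatin, cohesin and splicing genes, was counted beside the 9. All 32 had a peak in every library in the deposited lists. At equal list size 30 did, the exceptions being Gata2, with no peak in HSC 1, and Tet1, with none in HSC 2. At neither list length did a gene of the wider list have peaks throughout 1 group and none in the other. The number of peaks was lower in both LSC libraries for 29 of the 32 in the deposited lists, against 57.9% of all protein-coding genes. Of all protein-coding genes, 58.0% had a peak in all 4 deposited lists and 52.2% in all 4 lists of equal size. The 32 genes were not compared with that subset in number of peaks or covered share, so the shares given here are not of like genes. In lists of equal size the number was lower for 6, against 6.78% of all genes. It was higher in both LSC libraries for 4 of the 32 in lists of equal size, against 8.16% of all protein-coding genes. The covered share in lists of equal size was higher in both LSC libraries for 14 of the 32, against 18.1% of all genes. It was lower for 5, against 12.5%. The median difference in covered share in lists of equal size, LSC minus HSC, was 1.03 percentage points over the 32 genes, 0 over the 9 genes and 0 over all genes.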

How the data were processed

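Sub1 CUT&Tag was measured in 2 LSC and 2 HSC libraries of mouse bone marrow, each with 1 peak list. Per the submitters' processing notes, FastQC 0.11.5, Bowtie2 2.2.9, MACS2, ChIPseeker and the build mm10 were used, and the settings are not given in the sources used here. Per the labels' protocols, a low-input kit with 17 to 20 PCR cycles was used, and 2000 to 5000 cells are stated for HSCs. No control library was analysed here. Each deposited peak carries a score, a fold (the ratio of pileup plus 1 to background plus 1), and −log10 p and −log10 q values of the caller. The lowest deposited −log10 q was 5.21 to 5.41 in the 4 lists. Lists were called per library.

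From the deposited lists the whole-number pileups and 1 constant background per library were recovered for 100% of peaks, within 0.05 of a whole number, and that background stands in for depth, read totals not being given in the sources used here. Peaks overlapping a gene body extended by 5 kb by at least 1 bp were counted, the covered share was computed, and genes were ordered by the −log10 p of their strongest peak (0 without a peak). Groups were compared gene by gene with two-sided exact permutation tests. Starts came from RefSeq promoter sequences and motifs were searched on both strands. All 9 genes are described, and genes of the wider list are named where they have a peak in 1 group alone or lack one. Alternatives were shorter lists, a −log10 q of at least 10, other windows and overlaps, order by fold, the replicate block and leaving out each library. The genes and lists were chosen with earlier results of these data known. The counting was tested on simulated peaks, with 100% of 2400 values recovered. SciPy 1.17.1 gave the tests and matplotlib 3.10.9 the figures, with pandas 2.3.3 and NumPy 2.4.6 under Python 3.11.15. An exon annotation and genome sequence were not used here.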

Additional observations from a re-analysis of the deposited data

How the results depend on the processing

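The number of genes with a peak in every library was 6 within 1 kb of either gene end and 8 under the other alternatives run. The number with a peak over a start in every library was 6 in lists of 17092 peaks and 7 under the others. The number of genes with fewer peaks in both LSC libraries was 2 in lists of equal size, 1 in lists of 17092 peaks and 2 within 1 kb of either gene end, in place of 7. The number with a lower covered share was 1, 1 and 3 under the same settings, in place of 7, and with a higher share 1, 3 and 1, in place of 0, and 0 to 1 when 1 library was left out, the 1 without HSC 2. The cause was not tested.

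In lists of equal size the difference LSC minus HSC turned to 0.5 peaks for Idh2 and Npm1, and in covered share to 2.18 percentage points for Dnmt3a, 2.55 for Idh2, 1.10 for Npm1 and 1.20 for Ptpn11. In lists of 17092 peaks it turned to 2.33 for Dnmt3a, 0.219 for Tet2, 4.17 for Idh1, 1.36 for Idh2, 0.321 for Npm1 and 1.53 for Ptpn11. Within 1 kb of either gene end the covered share of Tet2 turned to 7.17 percentage points, and the percentile of Idh2 to −4.09 and of Ptpn11 to −0.258. Without any extension of the gene body Ptpn11 turned to −0.0662 percentiles.

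With 1 library left out, the number of genes with a peak in HSCs alone was 0 to 1, the 1 being Wt1 without HSC 1. The number of genes that ranked lower in LSCs was 1 to 4, in place of 1, with the highest count without LSC 2, 3 without HSC 1 and 2 without LSC 1. The number that ranked higher was 2 to 4, in place of 2, with the highest count without LSC 1. The difference in covered share of Idh2 ran between −15.7 and 2.54 percentage points and turned without HSC 2. The difference in percentile ran between −3.51 and 1.01 for Dnmt3a, turning without LSC 1 or HSC 2, and between −3.23 and 0.704 for Idh1, turning without LSC 1. It ran between −2.54 and 5.91 for Nras, turning without LSC 2 or HSC 1, and between −2.61 and 3.21 for Ptpn11, turning without LSC 1 or HSC 1.

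The number of genes whose strongest peak ranked higher in both LSC libraries was 1 within 1 kb of either gene end, and the number that ranked lower was 2 there. Genes with a larger fold of the strongest over the second peak in LSCs, 5 in the deposited lists, numbered 2 in lists of 17092 peaks, 3 without extension, 3 with an extension of 1 kb and 0 within 1 kb of the gene ends.

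In the deposited lists the difference LSC 1 minus LSC 2 was correlated over genes with the difference HSC 1 minus HSC 2. The correlation was −0.190 for the number of peaks, −0.0545 for the covered share and 0.0527 for the percentile. Each group gives a single such difference, between lists of unlike length, so these values cannot tell whether the libraries were paired. With the replicate block, 8 genes had fewer peaks in LSCs (7 without it), 7 a lower covered share (7), 3 a lower percentile (1) and 3 a higher percentile (2). With the numbers crossed, an alternative chosen after seeing the data, these counts were 7, 7, 1 and 2. The Wt1 peaks appeared in HSC 2 alone, the library with the highest background pileup, and the part of depth in this was not tested.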

Other observations

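Among the 32 further genes mutated in myeloid leukemia or acting on DNA methylation, a few stood out after their values were seen. In lists of equal size the number of peaks was higher in both LSC libraries for Flt3, Bcor, Zrsr2 and Tet1, 4 of the 32, against 8.16% of all protein-coding genes. Flt3, the gene of a receptor tyrosine kinase of progenitors, had 6 and 5 such peaks in the LSC libraries, against 2 and 3 in the HSC libraries. Its covered share in those lists was 10.7% and 10.6% in the LSC libraries, against 2.16% and 3.70% in the HSC libraries. In the deposited lists the order was the other way, the number of peaks being lower in both LSC libraries for all 4 genes. Flt3 had 8 and 5 deposited peaks in the LSC libraries, against 14 and 24 in the HSC libraries. Its deposited covered share and the percentile of its strongest peak overlapped between the groups. Kit is the gene of the receptor used in both sorts. In lists of equal size it had 1 and 1 peaks in the LSC libraries, against 2 and 1 in the HSC libraries. Its strongest peak stood at percentiles 62.6 and 75.1 in the LSC libraries and at percentiles 48.6 and 56.4 in the HSC libraries. Each of these genes was picked by its values, so no test is given.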
